A study of Mus musculus with 12 samples.

Results

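Fatty acid binding proteins and the fatty acid receptor Cd36 were examined in livers with and without glucagon. The 6 genes Fabp1, Fabp2, Fabp4, Fabp5, Fabp7 and Cd36 were taken by symbol from a table of 24475 genes, and 6 of 6 were found. The data were 12 libraries of polyadenylated RNA from whole liver of fed mice, 6 of the WT genotype and 6 of the Gcg KO genotype. Gcg encodes the precursor of glucagon, the pancreatic hormone of fasting, and of further peptides made in the gut. The study asked how glucagon shapes the zones of the liver. WT libraries carry the title numbers 1 to 6 and Gcg KO libraries 7 to 12. The labels give no strain, age, sex, Gcg allele, batch or date, and do not say that each library came from its own animal, so a p-value here reflects spread among libraries that may be partly technical.

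Fatty acid binding proteins are small cytosolic proteins that hold a long-chain fatty acid, or another lipid, inside a barrel of beta strands and carry it through the water of the cell. Each tissue uses its own set: Fabp1 is the liver form, Fabp2 the intestinal form, Fabp4 the form of adipocytes and capillary endothelium, Fabp5 the epidermal form that macrophages and other cells also make, and Fabp7 the brain form. Cd36 is a membrane glycoprotein that binds fatty acids and oxidised lipoproteins at the cell surface and speeds their uptake. In hepatocytes Fabp1 binds most of the incoming fatty acid, and nuclear receptors of the PPAR family, which fatty acids activate, are known to act on several of these genes.

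Of the 6 genes, Fabp5 was the 1 that passed the test between genotypes, which 3.87% of all tested genes passed. It rose about 6-fold in Gcg KO livers, and each Gcg KO library had more Fabp5 RNA than any WT library, a lack of overlap in either direction that 3.09% of the tested genes had. The dominant liver form Fabp1, the intestinal form Fabp2, the adipocyte form Fabp4, the brain form Fabp7 and Cd36 did not pass, and their groups overlapped. The highest Fabp1 and Fabp2 values were instead in libraries of both genotypes that stood apart from the others, as given below.

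Fabp5 (Entrez 16592) lies on chromosome 3 from 10012585 to 10016610 and Fabp4 (Entrez 11770) on the same chromosome from 10204342 to 10208616, 188 kb further on (GRCm38). These neighbours are shown because 1 of them changed and the other did not pass, and because close copies of a gene can share reads. The first 300 coding bases of each from GENCODE M21 follow (of 408 in Fabp5 and 399 in Fabp4), 5′ to 3′, with the longest run of bases they have in common, 12 bases, in capitals.
Fabp5: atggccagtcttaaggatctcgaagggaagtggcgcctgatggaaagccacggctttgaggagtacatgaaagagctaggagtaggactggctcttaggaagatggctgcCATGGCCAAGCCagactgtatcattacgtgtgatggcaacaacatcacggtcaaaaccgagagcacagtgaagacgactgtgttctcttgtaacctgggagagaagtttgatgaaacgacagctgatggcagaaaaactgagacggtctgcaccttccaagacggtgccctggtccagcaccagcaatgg
Fabp4: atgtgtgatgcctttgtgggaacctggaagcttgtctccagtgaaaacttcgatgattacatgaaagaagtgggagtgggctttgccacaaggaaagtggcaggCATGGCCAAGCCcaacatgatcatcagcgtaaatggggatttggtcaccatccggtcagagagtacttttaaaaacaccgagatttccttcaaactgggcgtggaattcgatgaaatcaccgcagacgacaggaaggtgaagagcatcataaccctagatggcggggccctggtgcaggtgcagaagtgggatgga
Over the whole coding sequence, 398 aligned bases, Fabp4 and Fabp5 were 63.1% identical. Identity between the other pairs of the 5 Fabp genes lay between 52.6% and 65.1%, and the longest run shared by any pair was 17 bases, between Fabp4 and Fabp7. No stretch of 50 coding bases was therefore shared among them.

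Copies outside the family were checked in the same way, by asking which windows of 50 bases of the main transcript occur in a transcript of any other gene of GENCODE M21. For Fabp1, Fabp2, Fabp4, Fabp7 and Cd36 100% of the windows were unique. For Fabp5 740 of 938 windows (78.9%) were unique, and the others occurred in up to 5 other gene models, Gm6166 (184 windows), Gm14328 (87), Fabp5l2 (21), Gm13998 (20) and Gm6100 (18). None of these models was listed by name among the deposited genes, so no value under their names could be set beside that of Fabp5. How reads that match several genes were counted is not stated in these sources, so the level of Fabp5 is uncertain in this respect.

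Promoters were available from RefSeq (GRCm38.p6) for Fabp1, Fabp2, Fabp7 and Cd36; Fabp4 and Fabp5 had no entry. The 250 bases before the start site are shown for Fabp1 and Fabp2, the most abundant members in WT livers, 5′ to 3′ on the gene's strand. Fabp1 is at chr6:71199629-71199878 (plus strand) and Fabp2 at chr3:122894822-122895071 (plus strand). Capitals mark the letters TATAAA and AGGTCA, the half-site that PPAR and other nuclear receptors bind, searched on both strands; on the strand shown AGGTCA reads TGACCT when it lies on the other strand.
Fabp1: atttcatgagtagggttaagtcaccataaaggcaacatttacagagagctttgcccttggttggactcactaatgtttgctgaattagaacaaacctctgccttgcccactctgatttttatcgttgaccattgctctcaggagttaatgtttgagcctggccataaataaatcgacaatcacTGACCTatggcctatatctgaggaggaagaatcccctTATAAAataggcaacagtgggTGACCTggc
Fabp2: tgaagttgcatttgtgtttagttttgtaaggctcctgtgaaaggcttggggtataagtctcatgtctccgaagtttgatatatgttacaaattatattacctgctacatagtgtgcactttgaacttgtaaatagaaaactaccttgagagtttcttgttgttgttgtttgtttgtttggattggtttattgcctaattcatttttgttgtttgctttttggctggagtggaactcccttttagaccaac
The Fabp1 window held TATAAA from base -30 and TGACCT from bases -67 and -9, counted back from the start site. The Fabp2 window held neither motif. The Cd36 window held TGACCT from base -228 and the Fabp7 window from base -171. Among 32851 RefSeq promoter windows of this length, 12.4% held TATAAA and 14% held AGGTCA on either strand. An exact direct repeat of AGGTCA with a spacer of 1 base, the ideal PPAR element, was found in 11 of them (0.0335%). None of the 4 member windows held this exact repeat. Repeats with mismatches were not searched for, so the result does not show that a promoter lacks a PPAR element. A match describes the letters only.

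Libraries held an estimated 10300000 to 15000000 reads, and the targeted gene Gcg was listed at 0 RPKM in all 12, so it checked no label in liver. RPKM, the unit of the table, is a read number scaled to gene length and library size. Of 11347 genes tested, 439 (3.87%) passed limma at an adjusted p of 0.05, 221 (1.95%) higher and 218 (1.92%) lower in Gcg KO. WT 6, Gcg KO 10 and Gcg KO 12 stood apart on the first principal component, at 16.99, 28.27 and 28.83. The other WT libraries lay between -21.85 and -3.922 on it. Gcg KO 7, 8 and 9 lay between 0.2549 and 6.985 and Gcg KO 11 at -12.87, so this component was not separate from genotype. Igfbp1, a secreted binding protein that insulin represses, was between 6.22 and 14.2 RPKM in the 3 libraries that stood apart. It was between 159 and 738 RPKM in the other 9. In whole tissue, fewer cells of a type and less RNA per cell cannot be told apart.

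**Figure D1:**
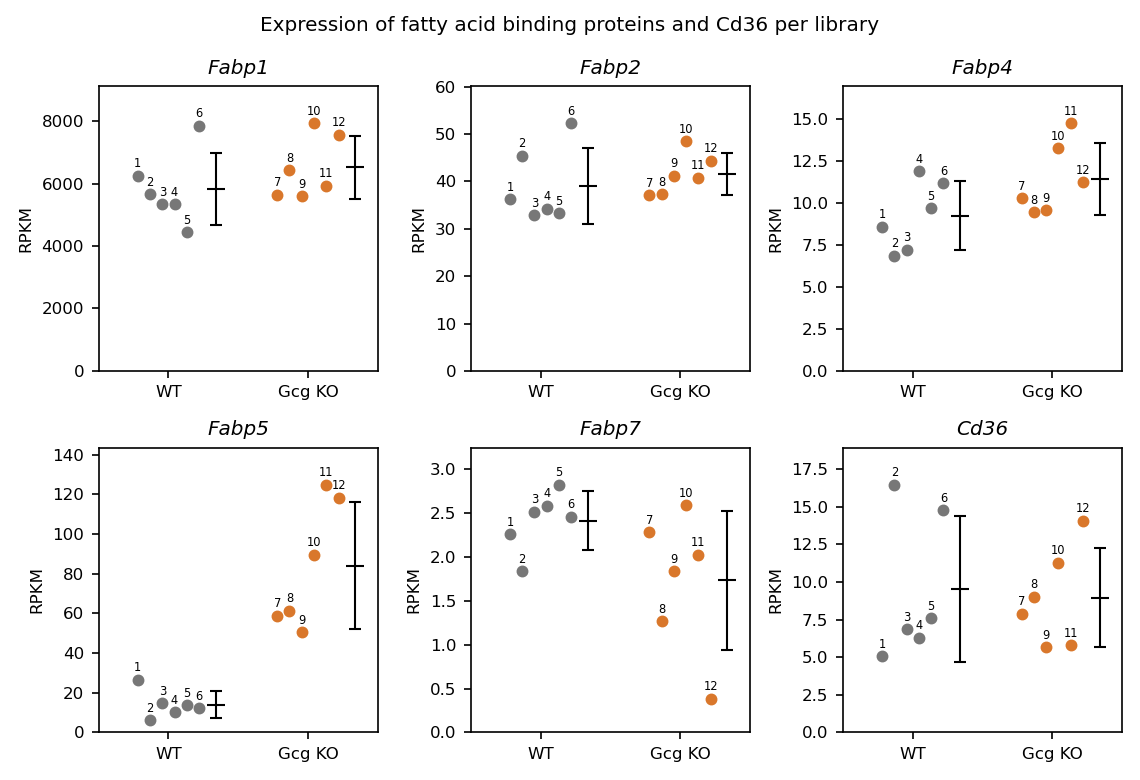
RPKM of the 6 genes in each library, with WT points grey and Gcg KO points orange, the library number above each point, and the group mean and SD (n = 6) as a black bar. Fabp5 lies between 50.6 and 125 RPKM in Gcg KO and at 26.6 RPKM or lower in WT, while the groups overlap for the other 5 genes.

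Fabp5 was between 6.22 and 26.6 RPKM in WT, with a median of 13 RPKM, and between 50.6 and 125 RPKM in Gcg KO, with a median of 75.5 RPKM. The lowest Gcg KO library, Gcg KO 9, was still above the highest WT library, WT 1. Mean RPKM was 13.95 ± 6.87 across WT and 84.0 ± 32.1 across Gcg KO libraries (SD, n = 6 each), and the log2 fold change 2.59 ± 0.31 (SE; limma adjusted p = 2.4e-04). This is a 6.01-fold rise on the log2(RPKM + 0.5) scale, with a 95% interval of 3.80-fold to 9.48-fold. The exact two-sided permutation test over 924 arrangements gave p = 0.00216, the smallest it can give.

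Among the 221 genes that rose, Fabp5 had the third largest log2 fold change, and 46 of the 11347 genes had a smaller p. Groups without overlap were seen for 351 of the tested genes (3.09%), 181 of them (1.6%) higher in Gcg KO, and for 1 of the 6 members. Without WT 6, Gcg KO 10 and Gcg KO 12 the log2 fold change of Fabp5 was 2.38 (limma adjusted p = 0.0071).

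Fabp5 also varied widely within each genotype. Its coefficient of variation was 49.3% in WT and 38.2% in Gcg KO, and its residual SD on the log2 scale was larger than that of 96.6% of the tested genes. In WT the extremes were WT 1 (26.6 RPKM) and WT 2 (6.22 RPKM). In Gcg KO 3 libraries (7, 8 and 9) lay between 50.6 and 61.4 RPKM and 3 (10, 11 and 12) between 89.6 and 125 RPKM. Of the libraries that stood apart, WT 6 had 12.1 RPKM and Gcg KO 10 and Gcg KO 12 had 89.6 and 118 RPKM, each inside the range of the rest of its genotype.

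**Figure D2:**
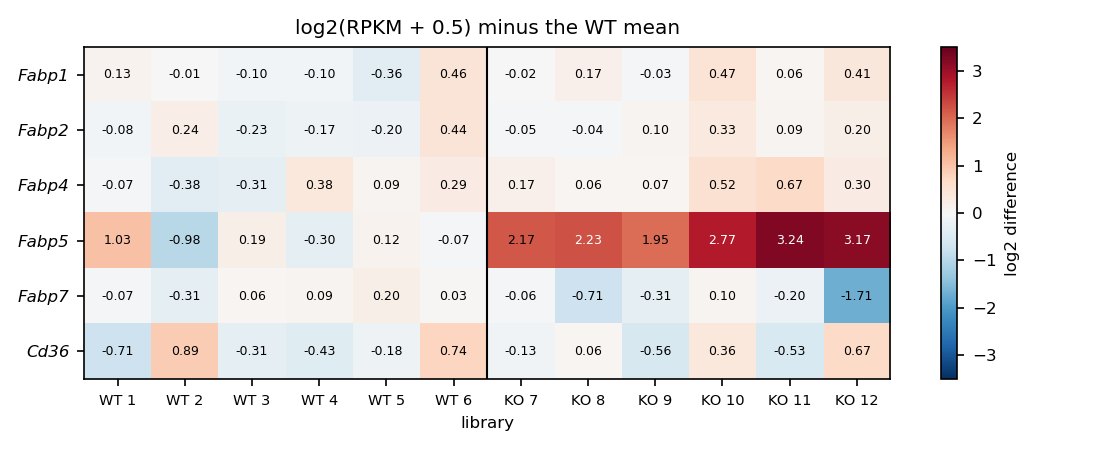
Difference of each library from the WT mean on the log2(RPKM + 0.5) scale, with genes in rows and libraries in columns; red is higher and blue lower. The Fabp5 row is between 1.95 and 3.24 in every Gcg KO library, and Fabp1 is highest in WT 6 (0.46), Gcg KO 10 (0.47) and Gcg KO 12 (0.41).

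Fabp1 (Entrez 14080, chromosome 6, 71199879 to 71205034), the main cytosolic fatty acid carrier of hepatocytes, ranked 17th of the 11347 tested genes by mean RPKM. It was between 4450 and 7857 RPKM in WT, with a median of 5505 RPKM, and between 5591 and 7937 RPKM in Gcg KO, with a median of 6189 RPKM. The groups overlapped, and only Gcg KO 10 exceeded the highest WT library. The means were 5817 ± 1158 and 6519 ± 1008 RPKM (SD, n = 6 each), giving a log2 fold change of 0.17 ± 0.14 (SE; limma adjusted p = 0.617). Its 95% interval, 0.919-fold to 1.38-fold, lay wholly below that of Fabp5.

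The highest Fabp1 values were those of the 3 libraries that stood apart. WT 6, Gcg KO 10 and Gcg KO 12 were between 7566 and 7937 RPKM, and the other 9 libraries, of both genotypes, between 4450 and 6442 RPKM. These 3 libraries were picked out from the data and are not a group of the study, so no test was made.

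Fabp2 (Entrez 14079, chromosome 3, 122895072 to 122899506), the intestinal form, followed a similar order. It was between 32.8 and 52.3 RPKM in WT, with a median of 35.3 RPKM, and between 37.1 and 48.6 RPKM in Gcg KO, with a median of 41 RPKM. The highest values of the series were WT 6 and then Gcg KO 10, and Gcg KO 12 came just after WT 2. The log2 fold change was 0.11 ± 0.12 (SE, n = 6 each; limma adjusted p = 0.75), with a 95% interval of 0.903-fold to 1.28-fold. Markers of enterocytes, the cells best known for Fabp2, were checked because a liver sample could carry gut tissue. Of 8 such genes Sis, Alpi, Rbp2 and Fabp6 were at 0 in all 12 libraries. Vil1, Lct and Cdx2 did not exceed 0.118 RPKM. Only Apoa4, which hepatocytes also make, was tested, and it rose (20.6 to 49.99 RPKM in WT, 43.1 to 89.5 RPKM in Gcg KO, limma adjusted p = 0.0299). Of all tested genes 3.87% passed. The part of gut tissue in the Fabp2 level was not tested.

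Fabp4, the adipocyte and endothelial form, was between 6.85 and 11.9 RPKM in WT, with a median of 9.12 RPKM, and between 9.45 and 14.7 RPKM in Gcg KO, with a median of 10.8 RPKM. Gcg KO 10 and Gcg KO 11 lay above the highest WT library and the other 4 Gcg KO libraries among the WT values. The means were 9.23 ± 2.05 and 11.4 ± 2.15 RPKM, a log2 fold change of 0.30 ± 0.15 (SE, n = 6 each; limma adjusted p = 0.35, 0.0616 before adjustment). The 95% interval was 0.988-fold to 1.53-fold.

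Cell types that make Fabp4 were followed through their markers. Of 10 adipocyte markers 4 were tested and 2 rose, Cfd and Adrb3 (limma adjusted p = 7.9e-04 for Cfd). The other tested markers, Pck1 and Lipe, did not pass. Their log2 fold changes were -1.09 and 0.11 (limma adjusted p = 0.4075 and 0.79). The defining gene Lep was at 0 in all 12 libraries, and Adipoq, Plin1 and Retn were at most 0.138, 0.0458 and 0.146 RPKM. Tusc5, also too low to test, was at most 0.181 RPKM. Cidea, likewise untested, was at most 0.0739 RPKM in WT and between 0.0649 and 1.13 RPKM in Gcg KO. Of the 12 liver endothelial markers 1 rose, Lyve1 (2.06 to 4.43 RPKM in WT, 4.78 to 9.68 RPKM in Gcg KO), and 11 did not pass. Before adjustment 3 of the 12 had p below 0.05, Lyve1, Clec4g and Stab1, each with a higher mean in Gcg KO. Over all 11347 tested genes 1783 were below 0.05 before adjustment, and 3.87% passed. The summed level of the list was 110 to 143 RPKM in WT and 112 to 172 RPKM in Gcg KO. Of 8 markers of continuous capillaries 4 were tested and 0 passed limma (0 at an unadjusted p under 0.05), with summed levels of 21.4 to 30.8 RPKM in WT and 20.7 to 30.8 RPKM in Gcg KO. Their part in the Fabp4 level was not tested.

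Fabp7 (Entrez 12140, chromosome 10, 57784923 to 57788450), the brain form, which Kupffer cells of mouse liver also express, was the least abundant member. It was between 1.83 and 2.82 RPKM in WT, with a median of 2.49 RPKM, and between 0.383 and 2.59 RPKM in Gcg KO, with a median of 1.93 RPKM. Gcg KO 8 and Gcg KO 12 lay below all WT libraries. At the estimated depth these values stand for about 3 to 29 reads per library, the lowest number in Gcg KO 12; the part of counting error in the spread was not tested. The log2 fold change was -0.48 ± 0.25 (SE, n = 6 each; limma adjusted p = 0.381), with a 95% interval of 0.494-fold to 1.04-fold. Without Gcg KO 12 it was -0.24 (limma adjusted p = 0.482). Of the 12 Kupffer cell and macrophage markers 0 passed limma, with 0 at an unadjusted p under 0.05. Among all 11347 tested genes 3.87% passed and 1783 had an unadjusted p under 0.05. The summed level of the 12 markers was 122 to 214 RPKM in WT and 148 to 222 RPKM in Gcg KO. The glial gene Sox10 was at 0 in every library, and the neural list had 1 tested gene, which did not pass.

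Cd36 (Entrez 12491, chromosome 5, 17781690 to 17888959), the surface receptor, was between 5.08 and 16.5 RPKM in WT, with a median of 7.24 RPKM, and between 5.69 and 14.1 RPKM in Gcg KO, with a median of 8.46 RPKM. The ranges coincided almost fully. The means were 9.52 ± 4.83 and 8.97 ± 3.27 RPKM, a log2 fold change of -0.02 ± 0.29 (SE, n = 6 each; limma adjusted p = 0.987). The 95% interval, 0.635-fold to 1.53-fold, is wide because Cd36 varied more between libraries of 1 genotype than 96.4% of the tested genes. WT 2 had the highest value, and the 3 libraries that stood apart ranked next, between 11.3 and 14.8 RPKM, while the remaining 8 reached at most 9.02 RPKM.

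**Figure D3:**
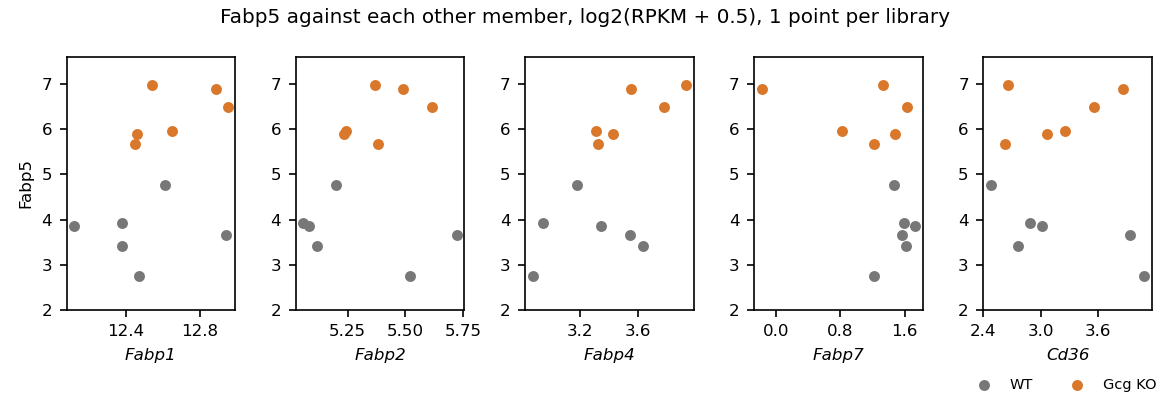
Fabp5 (vertical axis) against Fabp1, Fabp2, Fabp4, Fabp7 and Cd36 (horizontal axes), all as log2(RPKM + 0.5), with 1 point per library. The genotypes separate along the Fabp5 axis in each panel, where WT is at 26.6 RPKM or lower and Gcg KO at 50.6 RPKM or higher, and overlap along the other axes.

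Whether Fabp5 changed more than each other member was tested on the difference of their log2 values within a library. This cancels most of what scales a whole library, but less so for low genes such as Fabp7, because 0.5 RPKM was added to each value. The difference between Fabp5 and Fabp4 was 0.47 ± 0.70 in WT and 2.76 ± 0.37 in Gcg KO (SD, n = 6 each), a shift of 2.29. For Fabp1, Fabp2, Fabp7 and Cd36 the shifts were 2.41, 2.48, 3.07 and 2.61. In each of the 5 pairs every Gcg KO library was above every WT library (exact two-sided permutation test, p = 0.00216 and 0.00216 after adjustment over the 5 pairs, the smallest possible). Among the 9 libraries without WT 6, Gcg KO 10 and Gcg KO 12 the shifts were 2.08 to 2.695 (exact permutation test, adjusted p = 0.0159 for each pair). Fabp5 was chosen for this comparison after its rise was known, and all 5 pairs share its values. A small p could therefore be foreseen, and the 5 p-values are not separate support for the rise.

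The order of the members by level per length differed between genotypes in the place of Fabp5, and Cd36 and Fabp4, which overlapped in both, also changed places by mean. In WT the order of mean RPKM was Fabp1, Fabp2, Fabp5, Cd36, Fabp4 and Fabp7, and the ranges of Fabp5, Cd36 and Fabp4 overlapped, so these 3 cannot be ordered. In Gcg KO it was Fabp1, Fabp5, Fabp2, Fabp4, Cd36 and Fabp7, and here the lowest Fabp5 library (50.6 RPKM) was above the highest Fabp2 (48.6 RPKM), Fabp4 (14.7 RPKM) and Cd36 (14.1 RPKM) libraries, while Fabp4 and Cd36 overlapped. Fabp1 made up 98.7% to 99% of the summed RPKM of the 5 Fabp genes in WT and 97% to 98.3% in Gcg KO. Leaving Fabp1 aside, the summed RPKM of the other 4 averaged 64.7 ± 8.85 for WT and 139 ± 35.9 for Gcg KO (SD, n = 6 each). Of that sum Fabp5 held 10.3% to 36% in WT and 49.1% to 68.4% in Gcg KO, and Fabp2 held 49.2% to 75.3% and 22.4% to 39.9%. The ratio of Fabp5 to Fabp4 was 0.861 to 3.09 in WT and 5.31 to 10.5 in Gcg KO.

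**Figure D4:**
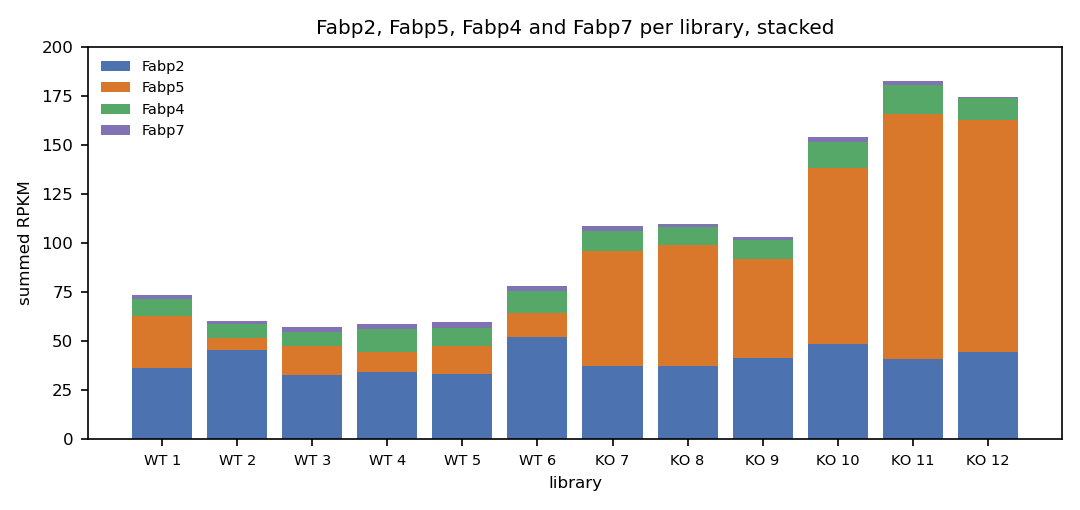
Stacked RPKM of Fabp2, Fabp5, Fabp4 and Fabp7 in each library (Fabp1, which is far more abundant, is left out). The stack reaches 57.2 to 78.1 RPKM in WT and 103 to 182 RPKM in Gcg KO, and the Fabp5 segment holds 49.1% or more of it in each Gcg KO library.

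The rest of the gene cluster that holds Fabp5 and Fabp4 was nearly silent. Fabp9, the testis form, was at 0 in all 12 libraries, and Pmp2, the myelin form, was at 0 in 11 and at 0.0488 RPKM in WT 2. Fabp12 was at most 0.0339 RPKM in WT and between 0.0301 and 0.0873 RPKM in Gcg KO, and the pseudogene Gm9833, between Fabp5 and Pmp2, reached 0.711 RPKM in Gcg KO 10. On the far side of Fabp4, Impa1, an inositol monophosphatase, was between 12.7 and 14.9 RPKM in WT and between 14.4 and 15.7 RPKM in Gcg KO (limma adjusted p = 0.483). On the near side of Fabp5, Pag1, a membrane adaptor of Src family kinases, was between 0.709 and 1.63 RPKM over all libraries and did not pass (limma adjusted p = 0.141). Of the family members elsewhere in the genome, Fabp3, the heart form, was at 0 in 11 libraries and at 0.137 RPKM in Gcg KO 8, and Crabp1 was at 0 throughout.

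Other genes of fatty acid entry mostly did not pass, with exceptions in both directions. Among 22 tested genes of fatty acid uptake and activation 2 rose, 1 fell and 19 did not pass (3.87% of all tested genes passed), with a median log2 fold change of 0.04 against 0.01 over all tested genes. Before adjustment 5 of the 22 had p below 0.05, against 1783 of the 11347 genes tested. Cav1, caveolin-1 of membrane caveolae, rose from 0.813 to 1.31 RPKM in WT to 11.4 to 32.0 RPKM in Gcg KO (log2 fold change 3.80 ± 0.21 SE, limma adjusted p = 4.3e-07). Slc27a2, a transporter that also activates very long chain fatty acids, rose from 399 to 492 RPKM to 547 to 596 RPKM, with no overlap (log2 fold change 0.37 ± 0.07 SE, limma adjusted p = 0.0052). Mfsd2a, a carrier of lysophosphatidylcholine, fell from 4.83 to 26.1 RPKM to 0.272 to 1.82 RPKM (log2 fold change -3.55 ± 0.37 SE, limma adjusted p = 1.1e-04). Acyl-CoA synthetases such as Acsl1 (262 to 345 RPKM in WT, 313 to 401 RPKM in Gcg KO) and the acyl-CoA carrier Dbi (574 to 856 and 635 to 881 RPKM) did not pass. The scavenger receptors of the Cd36 type, Scarb1 and Scarb2, did not pass either (limma adjusted p = 0.555 and 0.0808; Scarb2 alone was below 0.05 before adjustment).

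**Figure D5:**
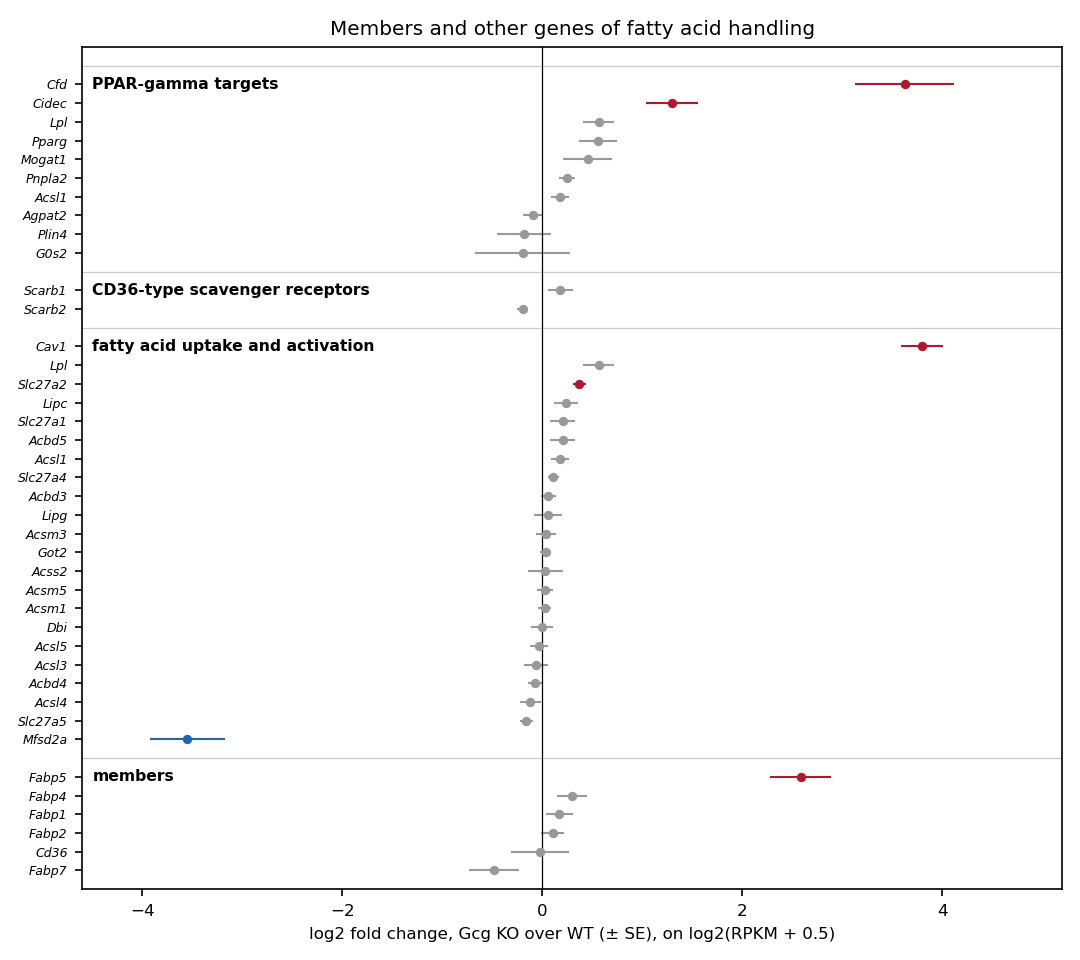
Log2 fold change, Gcg KO over WT, with its SE as a bar, for the 6 members and the tested genes of 3 lists; red rose, blue fell and grey did not pass limma at an adjusted p of 0.05. Among the members Fabp5 (2.59) is the red point, and Cav1 (3.80), Slc27a2 (0.37), Cidec (1.30) and Cfd (3.63) rose and Mfsd2a (-3.55) fell in the lists.

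Targets of PPAR-alpha, the receptor that controls fatty acid oxidation and Fabp1 in liver, gave 2 rises, 1 fall and 20 genes that did not pass among 23 tested (3.87% of all tested genes passed), with a median log2 fold change of 0.17. Before adjustment 10 of the 23 had p below 0.05, in both directions, against 1783 of the 11347 genes tested. Pex11a, a peroxisome division factor, rose from 19.2 to 32.5 RPKM to 34.7 to 60.4 RPKM, and Vnn1, a pantetheinase, from 2.14 to 17.7 RPKM to 15.3 to 28.5 RPKM. Fads2, the delta-6 desaturase, fell from 132 to 151 RPKM to 87.0 to 116 RPKM. The highest Vnn1 value of each genotype belonged to a library that stood apart, WT 6 (17.7 RPKM) and Gcg KO 12 (28.5 RPKM). Cyp4a14, a fatty acid hydroxylase, was between 50.8 and 100 RPKM in the 3 libraries that stood apart and between 0.552 and 68.8 RPKM in the other 9, and did not pass between genotypes (limma adjusted p = 0.557).

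Genes that PPAR-gamma induces in fatty liver gave 2 rises and 0 falls among 10 tested (3.87% of all tested genes passed). Their median log2 fold change was 0.35. Before adjustment 5 of the 10 had p below 0.05, against 1783 of the 11347 genes tested. These 5 were Cfd, Cidec, Lpl, Pnpla2 and Pparg, each with a higher mean in Gcg KO. Cfd, the serine protease adipsin, rose from 0.0743 to 0.552 RPKM to 2.45 to 27.9 RPKM (log2 fold change 3.63 ± 0.49 SE, limma adjusted p = 7.9e-04). Cidec, a lipid droplet protein, rose from 0.252 to 0.820 RPKM to 1.11 to 4.64 RPKM (log2 fold change 1.30 ± 0.26 SE, limma adjusted p = 0.0125). Cidec did not pass without WT 6, Gcg KO 10 and Gcg KO 12 (log2 fold change 1.21, limma adjusted p = 0.0759). Pparg itself, counted among the 10, had 3.73 to 5.81 RPKM in WT and 4.39 to 10.96 RPKM in Gcg KO (limma adjusted p = 0.148). Cd36 and Fabp4, 2 textbook PPAR-gamma targets, did not pass. Of 18 regulators known to act on Fabp genes or Cd36, among them Ppara, Pparg, Rxra, Nr1h3, Nr1i2 and Hnf4a, 0 passed limma, and of 8 tested genes of triglyceride synthesis 0 passed. Without adjustment 4 of the 18 had p below 0.05, as did 0 of the 8.

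Other cell types known to express Fabp5 were followed as well. The keratinocyte genes Krt5, Krt14 and Trp63 were at 0 in all 12 libraries, and the 1 tested gene of that list did not pass. Of 8 bile duct markers 3 were tested and 1 rose, Spp1, which encodes osteopontin (11.2 to 25.1 RPKM in WT, 32.2 to 246 RPKM in Gcg KO, limma adjusted p = 0.0112). Sox9, a duct cell transcription factor, had 0.989 to 1.45 RPKM in WT and 1.34 to 2.83 RPKM in Gcg KO and did not pass (log2 fold change 0.42 ± 0.14 SE, limma adjusted p = 0.13, 0.0092 before adjustment). Of the markers too low to test, Epcam had means of 0.262 and 0.359 RPKM and Cldn7 of 0.118 and 0.235 RPKM in WT and Gcg KO. Mostly through Spp1 the summed level of the bile duct list was 14.6 to 28.0 RPKM in WT and 35.6 to 249 RPKM in Gcg KO, and Krt19, a keratin of these cells and the third tested gene, was 0.496 to 1.32 and 0.373 to 1.43 RPKM. Gcg KO 11, the library with the most Spp1, also had the most Fabp5, but the order differed in other libraries. Gcg KO 10 and Gcg KO 12 had at most 39.5 RPKM of Spp1, below the Gcg KO median of 67.9 RPKM. Their Fabp5 levels, 89.6 and 118 RPKM, were the next highest. The part of bile duct cells in the Fabp5 level was not tested. Of 10 stellate cell markers 1 rose, the pericyte gene Rgs5 (6.11 to 7.10 RPKM in WT, 7.81 to 8.999 RPKM in Gcg KO). Before adjustment 3 of the 10 had p below 0.05, Rgs5, Col1a2 and Col3a1, each with a higher mean in Gcg KO. Over all 11347 tested genes 1783 were below 0.05 before adjustment, and 3.87% passed. The summed level of the list was 73.8 to 94.4 RPKM in WT and 76.9 to 103 RPKM in Gcg KO. Monocyte and neutrophil markers (5 tested) and T, NK and B cell markers (1 tested) gave 0 calls, with 0 at an unadjusted p under 0.05. Of 9 hepatocyte markers 8 did not pass and 1, the urea cycle enzyme Cps1, fell, and Alb was between 22430 and 31960 RPKM in all 12 libraries.

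Members were also compared with each other between libraries of the same genotype, on log2 values from which the group mean had been subtracted. Over all 12 libraries the smallest p for Pearson's r was that of Fabp1 and Fabp2 (r = 0.78, permutation p = 0.00463, 0.0694 after adjustment). Next came Fabp2 and Cd36 (r = 0.74, permutation p = 0.0187, 0.14 after adjustment). Since 3 libraries stood apart, the comparison was repeated over the other 9, where r was 0.32 and 0.58 for these pairs. There, of 15 pairs of members 0 passed after adjustment, by Pearson's r or Spearman's rho (permutation test, adjusted p for r from 0.457 to 0.914). Of these pairs 1 had an unadjusted p for r below 0.05. That pair was Fabp1 and Fabp7 (r = -0.66, permutation p = 0.0447; rho = -0.68, permutation p = 0.0668). Without WT 1 and WT 5, the libraries farthest out in Fabp1, r was -0.86. The largest r in size over the 9 libraries was that of Fabp5 and Cd36 (r = -0.73, permutation p = 0.061, and rho = -0.40, permutation p = 0.342). It was -0.67 without WT 1 and Gcg KO 11.

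The genes most like each member across libraries differed from member to member. Likeness was Pearson's r over the 12 libraries after subtraction of the group means, among 9756 named genes, and is a description: the 12 values share depth and the libraries that stood apart, and the highest of so many values is large by selection. For Fabp5 the top gene was Unc93b1, a chaperone of endosomal Toll-like receptors (r = 0.92, and 0.94 over the other 9 libraries), followed by Tap2, a peptide transporter of antigen presentation (0.87), and Efemp2, a matrix protein (0.86). Unc93b1 itself had means of 12.7 and 14.1 RPKM in WT and Gcg KO and did not pass (limma adjusted p = 0.509). For Fabp4 it was Igfals, a serum carrier of insulin-like growth factors (0.93), then Sparc, a matrix glycoprotein (0.91), and Fah, a tyrosine breakdown enzyme (0.89). For Cd36 it was Abcc3, an organic anion exporter (0.94), then Hibadh, a valine breakdown enzyme (0.93), and Gsta2, a glutathione transferase (0.92), each at 0.91 to 0.93 over the 9 libraries too.

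For Fabp1 the most alike genes were Nagk, N-acetylglucosamine kinase (r = 0.96), the kinase Nuak2 (0.94) and the cell cycle kinase Cdk4 (0.94), and over the 9 libraries these were 0.93, 0.81 and 0.77. For Fabp2 they were Rtn4, an endoplasmic reticulum protein (0.94), Slc9a8, a sodium/proton exchanger (0.94), and Wdr60, a dynein subunit (0.94). Rtn4 rose between genotypes as well, from a mean of 11.9 RPKM in WT to 23.8 RPKM in Gcg KO (log2 fold change 1.09 ± 0.26 SE, limma adjusted p = 0.0327). For Fabp7 they were Camk2n1, an inhibitor of CaM kinase II (0.84), Habp2, a plasma protease (0.83), and Fbxl15, an F-box protein (0.82). The likeness of Fabp7 and Camk2n1 rested on the 3 libraries that stood apart, since r was -0.10 over the other 9.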

How the data were processed

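Polyadenylated mouse liver RNA was made into 12 strand-specific libraries, per the labels' protocols. The authors deposited 1 table of RPKM values per gene and library. CASAVA 1.8.2, FastQC and the build GRCm38 are listed, per the submitters' processing notes; no source used here gives the aligner, the counting tool or the annotation. In all, 989 values above 0 lay below 1e-06 RPKM, far less than 1 read, but none of these belonged to a member. Coordinates came from RefSeq by Entrez identifier (24375 of 24475 matched, 99.6%). Depth was estimated from the most frequent low value of RPKM times length among genes with 1 transcript.

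RPKM values were tested as log2(RPKM + 0.5) for genes with a mean of at least 0.5 RPKM (11347 genes; all 6 members passed) with limma 3.58.1 (R 4.3.3), mean-variance trend, without covariates; two-sided p-values were adjusted by Benjamini-Hochberg across those genes, threshold 0.05. A fold change on this scale understates that of low genes. The script was tested on simulated data. The members, the 19 gene lists (210 entries, 207 found), the tests and the rule for named genes were chosen with earlier results of these data known. Named genes were the members, up to 3 genes per direction that passed in each list other than marker lists, the 3 genes most like each member (mean of at least 1 RPKM) and the members' neighbours on chromosome 3; other genes are examples chosen after their values were seen, and a few genes of the lists are not reported here. Alternatives were other pseudocounts, filters, scalings and variance settings, the first principal component as covariate, and libraries left out.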

Additional observations from a re-analysis of the deposited data

Results flagged for a closer look

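A single library far from the other 5 of its group was sought for 39 genes. These were the members, the genes that passed in lists other than marker lists and the genes most like a member. A few genes were added by hand, Spp1 and Lyve1 among them, and not every gene named in the text was included. Such a library was found in 2 of 78 groups, and chance gives about 1 in 20. Spp1 was at 246 RPKM in Gcg KO 11 and between 32.2 and 80.8 RPKM in the other Gcg KO libraries. Lyve1 was at 9.68 RPKM in Gcg KO 10 and between 4.78 and 5.82 RPKM in the other Gcg KO libraries. No member was among them.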

How the results depend on the processing

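Fabp5 kept its direction and its call under all 22 alternatives, with log2 fold changes of 2.38 to 2.79 and limma adjusted p from 1.2e-04 to 0.0071. Fabp1, Fabp2, Fabp4, Fabp7 and Cd36 passed under none of the 22. With the first principal component as a covariate the log2 fold change of Fabp1 was -0.056 and that of Fabp2 -0.088, both with the sign turned. This component partly follows genotype, so as a covariate it can take up part of the genotype difference. Cd36 ranged from -0.17 to 0.16 as each library was left out in turn, with the sign turned without WT 2 (0.16), WT 6 (0.13), Gcg KO 9 (0.09) or Gcg KO 11 (0.08), and was -0.52 with the first component as a covariate. The count of genes past the threshold was 439, and 277 to 471 as each library was left out; it was 277 without WT 3. With the first component as a covariate 231 genes were higher and 331 lower. Among the 7 lists, PPAR-alpha targets then had 6 calls instead of 3, PPAR-gamma targets 4 instead of 2, regulators 1 and triglyceride synthesis 2 instead of 0. Without WT 6, Gcg KO 10 and Gcg KO 12 regulators and triglyceride synthesis had 1 call each. At a mean of at least 2 RPKM PPAR-gamma targets had 1, since Cidec fell below that filter and was not tested. The causes of the other differences were not tested. No paired analysis was possible because the groups share no replicate numbers. Depth limits Fabp7 most, at about 3 to 29 reads per library, and shared sequence limits Fabp5.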
